A study of Mus musculus with 3 samples.

Results

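RNA of LNC cells given a scrambled oligonucleotide was set against RNA of untreated LNC cells, 1 array a side. LNC is a line of malignant B-1 cells that came from the lymph node of an NZB (New Zealand Black) mouse aged 1 year, and RNA was taken at 24 h. The scrambled oligonucleotide was given at 20 µM as the control for effects of oligonucleotides that do not depend on the target. The other array of the study held LNC cells given an IL-10 antisense oligonucleotide at 20 µM, and its values are printed as "antisense" for reference, as labelled, although its Il10 intensity was above that of both other arrays. Of the 12654 probe sets of the Affymetrix array, 12588 are not Affymetrix controls and all of these entered the comparison, which uses 2 of the 3 arrays of the study. The sources used here do not say whether 1 culture or several fed an array, nor the backbone chemistry or mode of delivery of the oligonucleotides, whose sequences are not analysed here. With 1 array a group there is no replicate, so no test was run, no error can be attached to a single difference, and an effect of the oligonucleotide cannot be told apart from a difference between cultures or hybridisations.

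B cells carry sensors of foreign nucleic acid. Tlr9, in the endosome, detects DNA with unmethylated CpG and signals through Myd88, Irak kinases and Traf6 to NF-kB and to interferon regulatory factors. NF-kB is held in the cytoplasm by inhibitors such as Nfkbia, which is itself an NF-kB target, and it drives cytokine, survival and activation genes. Interferon, acting through Jak kinases and Stat factors, induces a further set of antiviral and antigen-processing genes. An oligonucleotide may also be taken up by endocytosis, and treatment of cells can engage heat shock, unfolded protein or amino acid stress genes. The comparison asks whether such genes differ between cells with and without the control oligonucleotide.

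Intensities are in the arbitrary units of the array, after each array was brought to the same trimmed mean. The share of values at or below 0 was 24.8% on the untreated array and 26% on the scrambled one, as happens where the signal of mismatched probes is subtracted from that of matched ones. A noise floor was set at 595.9, which is 2 robust standard deviations of the values below 0. Values under it were raised to it before the logarithm was taken. Of the 12588 probe sets, 6127 had a value above the floor on at least 1 of the 3 arrays and were kept. Both arrays of the comparison were above the floor for 4846 of them, 511 were above it on the scrambled array and not on the untreated one, 443 on the untreated array and not on the scrambled one, and 327 on the antisense array alone. A difference is the log2 intensity of the scrambled array minus that of the untreated array, and a fold against a value under the floor is a lower bound computed against the floor. A probe set identifier with _f, _s, _r, _g or _i before its ending may bind more than 1 transcript or hold fewer usable probes, and such probe sets are marked where they are named.

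Several defining markers of B cells were high on both arrays. The intensity of Cd79a, a signalling chain of the B cell receptor, was 27790.1 untreated and 30469 scrambled. That of Cd79b, the other such chain, was lower at 1525 untreated and 1489 scrambled. Ms4a1, which encodes CD20, had intensities of 44237 untreated and 44803 scrambled, and the B cell transcription factor Pax5 had 8239 untreated and 9218 scrambled. The heavy chain gene Ighm (a _s set) was among the brightest at 155216 untreated and 183787 scrambled. The probe sets of Cd5, Spn and Itgam, which mark B-1 cells, were below the floor on the 3 arrays, as were the B cell genes Cd22, Cr2 and Fcer2a. In the list of B-1 and plasma cell genes, Plscr1 read 8556 untreated and 9054 scrambled and Il10 5164 untreated and 5616 scrambled. The B cell identity of the line was thus visible in Cd79a, Ms4a1, Pax5 and Ighm, while the B-1 markers Cd5, Spn and Itgam were not detected.

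Most transcripts had nearly the same intensity with and without the scrambled oligonucleotide. Among the 4846 probe sets above the floor on both arrays, 62.4% lay within 1.2-fold, the correlation of log2 intensities across probe sets was 0.972, and the robust standard deviation of the differences was 0.29. Of the 6127 probe sets kept, 190 (3.1%) were at least 2-fold apart. The scrambled array was the higher of the pair in 104 (1.7%) of these and the lower in 86 (1.4%), a split of 54.7% higher. Scaling to the bacterial spike-in controls in place of the common trimmed mean turned this split to 70.4% higher, with 119 higher and 50 lower. In 84 of the 190, 1 of the arrays was below the floor, so that the fold is a bound. Among probe sets above the floor on both arrays, 63 (1.3%) were higher by 2-fold or more and 43 (0.887%) were lower by as much.

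A fold of 2 is an arbitrary limit on a continuous distribution. The probe set just inside it on the higher side was a _r set of the glutathione transferase gene Gstm5, at 795 untreated and 1592 scrambled, and the one just outside was Fam50a at 912 and 1822. On the lower side Galnt1, a glycosyltransferase of mucin-type sugar chains, was just inside at 2926 and 1462, and Ncs1, a neuronal calcium sensor, was just outside at 1954 and 978.

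**Figure D1:**
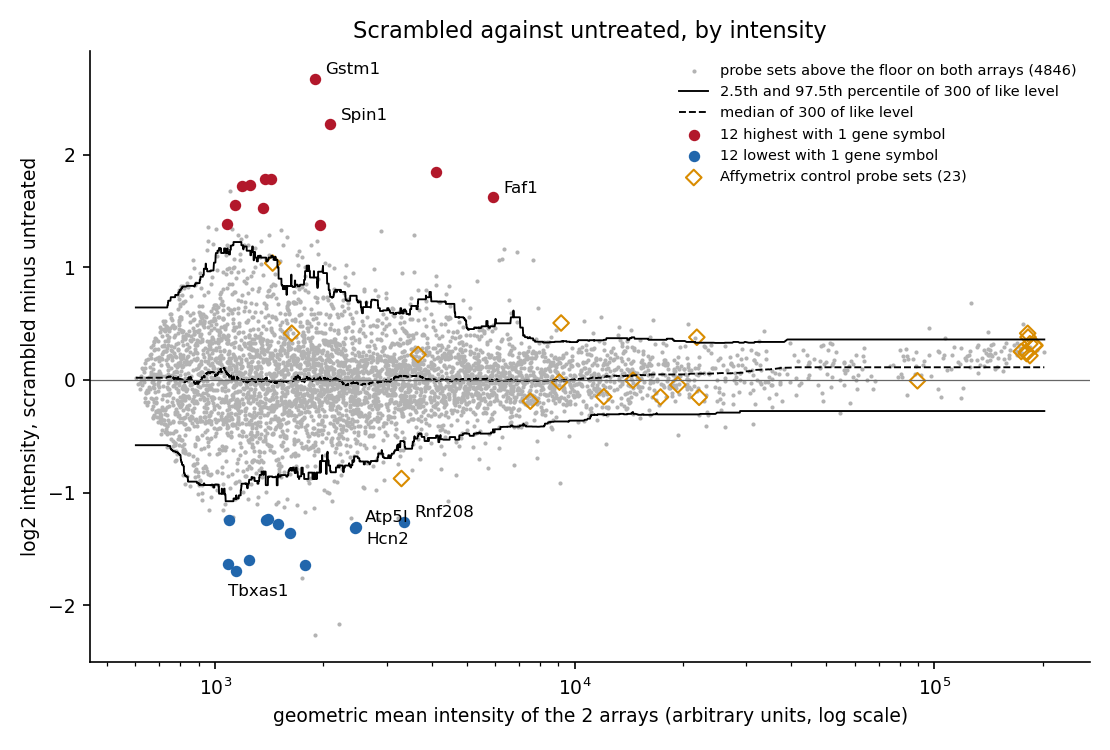
Each point is 1 of the 4846 probe sets above the floor on both arrays: the horizontal axis is the mean level of the 2 arrays in array intensity units on a log axis, the vertical axis the log2 difference of the scrambled minus the untreated array, and the lines enclose the central 95% of the 300 probe sets nearest in level. The cloud is widest at a level of 1000 to 2000, where 73 probe sets were at least 2-fold apart, and no probe set above 8000 was. Nearer the floor its width is limited because both values must exceed the floor. Orange diamonds are control probe sets, most of the bright ones above 0.

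Large differences were mostly those of dim probe sets. Of the 190 probe sets at least 2-fold apart, 166 had a mean level under 2000. Between the floor and 1000, 10 of 689 probe sets above the floor on both arrays (1.45%) were at least 2-fold apart, with a 95th percentile of 1.78-fold. Both values had to exceed the floor, so probe sets with a mean level near it could not be far apart. The share and spread of this class, and the bands of the dimmest probe sets, are therefore limited by the filter. Between 1000 and 2000, 73 of 1412 probe sets above the floor on both arrays (5.17%) were at least 2-fold apart, and the 95th percentile of the fold was 2.02. Between 4000 and 8000, 8 of 800 were, with a 95th percentile of 1.44-fold, and above 8000 no probe set was. A 2-fold difference therefore lies near the edge of the scatter at a level of 1000 to 2000 and beyond it at 4000 and above. For this reason many of the named differences are read below against a band, which is the central 95% of the differences of the 300 probe sets nearest in level. A difference given without its band may lie inside or outside it. Among those given without it, Pola2, Pole2, Fcgr2b, Atp5pb, B2m and H2-Q5 lay below their bands and Ccne1 and Timp1 above theirs. By construction few probe sets lie outside the band, 125 above (2.58%) and 130 below (2.68%), and the band includes any effect of the oligonucleotide.

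Different probe sets of the same gene offer a check within the same pair of arrays. For 417 genes the brightest 2 probe sets were both above the floor on both arrays. Their differences had the same sign in 221 genes (53%), and the correlation of the differences across genes was 0.09. In the 142 genes with a mean level under 2000 the sign was shared in 68 (47.9%), in the 214 genes from 2000 to 8000 in 112 (52.3%), and in the 61 genes at 8000 or more in 41 (67.2%), with a correlation of 0.43 in the last class. Paired probe sets can bind different transcript ends or variants, so a disagreement does not show which of them is right.

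**Figure D2:**
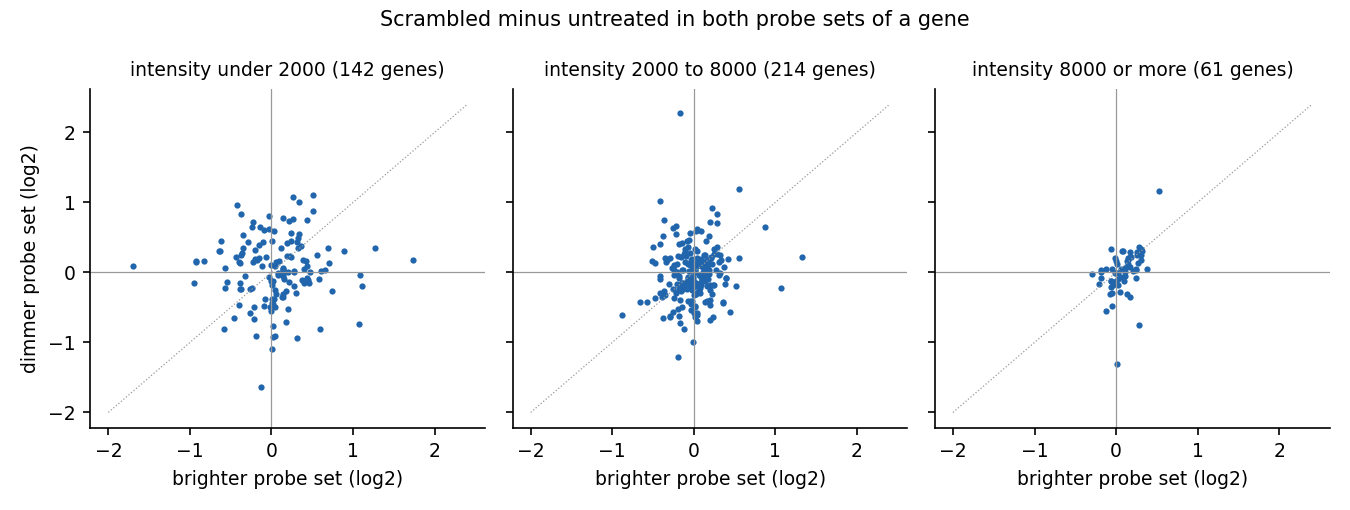
Each point is 1 of the 417 genes with at least 2 probe sets above the floor on both arrays: the axes are the log2 differences, scrambled minus untreated, of its brightest and second brightest probe set. Points are scattered around the origin with little alignment, and 221 of the 417 (53%) lie in the quadrants of equal sign.

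The genes that were at least 2-fold apart can be read against the same check. Of those called higher, 27 probe sets had another probe set of the same gene past the filter, and the median difference of the others was 0.22, in the same direction for 19. For 2 of the 27 the other probe set was called too, and both belong to Rfc5, a subunit of the clamp loader of DNA replication. Rfc5 had differences of 1.36 and 1.02 in its dimmer probe sets, while its brightest read 8038 untreated and 6036 scrambled, a difference of -0.41. Of those called lower, 11 had another probe set, the others went the same way in 4, their median was 0, and 0 were called.

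Among genes above the floor on both arrays, the largest difference was that of Gstm1, a glutathione transferase that conjugates electrophiles. Its intensity was 750.3 untreated, 4788 scrambled and 1831 antisense, a difference of 2.67 or 6.38-fold. The scrambled array stood above both others, but this is a _f probe set, which may take up transcripts of related Gstm genes, and 2 other Gstm1 probe sets were below the floor on the 3 arrays. Spin1, a reader of methylated histone H3, followed at 949.5 untreated, 4586 scrambled and 1514 antisense, a difference of 2.27. Its 3 other probe sets gave differences of -0.17, 0.66 and -0.06. Thus the Spin1 gap was seen in 1 of 4 probe sets at this size.

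The probe set assigned to Tyms-ps, a pseudogene of thymidylate synthase, read 2169 untreated, 7774 scrambled and -1202 antisense (a _r set, difference 1.84). A second Tyms-ps probe set, an _i set, was below the floor on every array. Psd, an exchange factor for Arf6, read 744 untreated, 2554 scrambled and 2300.3 antisense, a difference of 1.78. Col4a2, a chain of basement membrane collagen, read 770.5 untreated, 2645 scrambled and 943 antisense, a difference of 1.78. The antisense array was near the scrambled one for Psd and near the untreated one for Col4a2. Eif2ak1, the haem-regulated kinase that phosphorylates eIF2α, read 687 untreated, 2283 scrambled and 2765 antisense, and both oligonucleotide arrays were thus above the untreated one. Its difference was 1.73, while a second probe set of Eif2ak1 gave 0.18.

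Faf1, a ubiquitin-binding protein that associates with Fas, was the brightest of the 12 furthest on this side. Its _f probe set read 3369 untreated, 10359.8 scrambled and 1930.4 antisense, a difference of 1.62 where the band ended at 0.48, and a second Faf1 probe set was below the floor on both arrays. Cryl1, a crystallin-related dehydrogenase, read 656 untreated, 2157 scrambled and -255 antisense, a difference of 1.72, against 0.46 in its other probe set. The remaining members of the 12 were Sema5b, a semaphorin, at 663 untreated and 1940.3 scrambled, Tert, the catalytic subunit of telomerase, at 799 untreated and 2299 scrambled, the RNA phosphatase gene Dusp11 at 669 untreated and 1746 scrambled, and the somatostatin receptor Sstr4 at 1216 untreated and 3159 scrambled. Their differences ranged from 1.38 to 1.55, above the band of like probe sets, and the 4 antisense values (from 918 to 1874) lay between the untreated and scrambled ones.

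The lower side was led by a probe set without a single gene symbol, with a gap of 2.26 on the log2 scale, which stays unnamed. Among named genes Tbxas1, thromboxane synthase, read 2062 untreated, 636 scrambled and 2947 antisense, a difference of -1.70, and its other probe set gave 0.09. The antisense array was above both, so the scrambled value alone was low. Junb, an AP-1 subunit and immediate-early gene, read 3131 untreated, 1004 scrambled and 1235 antisense in a _r probe set, a difference of -1.64. A second Junb probe set, an _i set, read 1754 untreated and 1599.6 scrambled, a difference of -0.13. Banp, a nuclear matrix protein that binds p53, read 1911 untreated, 618 scrambled and 831 antisense, a difference of -1.63. Mafk, a small Maf partner of Nfe2l2 and Bach factors, read 2162 untreated, 713 scrambled and 2095 antisense, a difference of -1.60, with the antisense array close to the untreated one.

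The zinc finger repressor Snai2 read 2582 untreated, 1005 scrambled and 659 antisense, low on both oligonucleotide arrays, with a scrambled difference of -1.36. Atp5l, a subunit of ATP synthase, had a difference of -1.31 in a _f probe set at 3856 untreated and 1552 scrambled. Its much brighter probe set was level at 35189.7 untreated and 35390.0 scrambled. Hcn2, a pacemaker channel, read 3885 untreated and 1569 scrambled in a _r set, and Rnf208, a RING finger protein and the brightest of the 12, read 5171 untreated and 2163 scrambled, a difference of -1.26. The other four were Aldh3a2, a fatty aldehyde dehydrogenase, at 2323 untreated and 958 scrambled, Apoa5, an apolipoprotein, at 2126 untreated and 897 scrambled in a _g set, Plcb1, a phospholipase C, at 1685 untreated and 712 scrambled, and Elovl1, a fatty acid elongase, at 2149.9 untreated and 913 scrambled. Their differences lay between -1.28 and -1.24, each below its band. The other probe sets of Hcn2, Aldh3a2, Apoa5 and Plcb1 were below the floor on every array.

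Where 1 array was below the floor the fold is a lower bound. Pcp2, a Purkinje cell protein, was below the floor untreated and 7652 scrambled in a _r set, at least 12.8-fold higher, with 2050.5 on the antisense array. Tmem268, the homeobox genes Hoxb8 (a _r set) and Vax2, and Tcf3, which encodes the E2A factors of B cell development, were between 1831 and 2099 scrambled and below the floor untreated, at least 3.07-fold to 3.52-fold higher. A second Hoxb8 probe set, a _s set, was below the floor on every array. For Tcf3 the untreated value was 559, just under the floor, and the antisense value 616. In the opposite direction Agrn, the proteoglycan agrin, was 4696 untreated and 5739.7 antisense but below the floor on the scrambled array, at least 7.88-fold lower. A second Agrn probe set was below the floor on both arrays, at 44 untreated and 590 scrambled, and read 999 antisense. The forkhead gene Foxl1 was 3430.4 untreated and below the floor scrambled, at least 5.76-fold lower. Cdc45, which is part of the replicative helicase, was 2756 untreated and 1636 antisense and lay at the floor on the scrambled array, at least 4.62-fold lower. The nuclear envelope gene Sun2 and the mitochondrial phosphate carrier Slc25a3 were at least 4.24-fold and 3.69-fold lower.

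**Figure D3:**
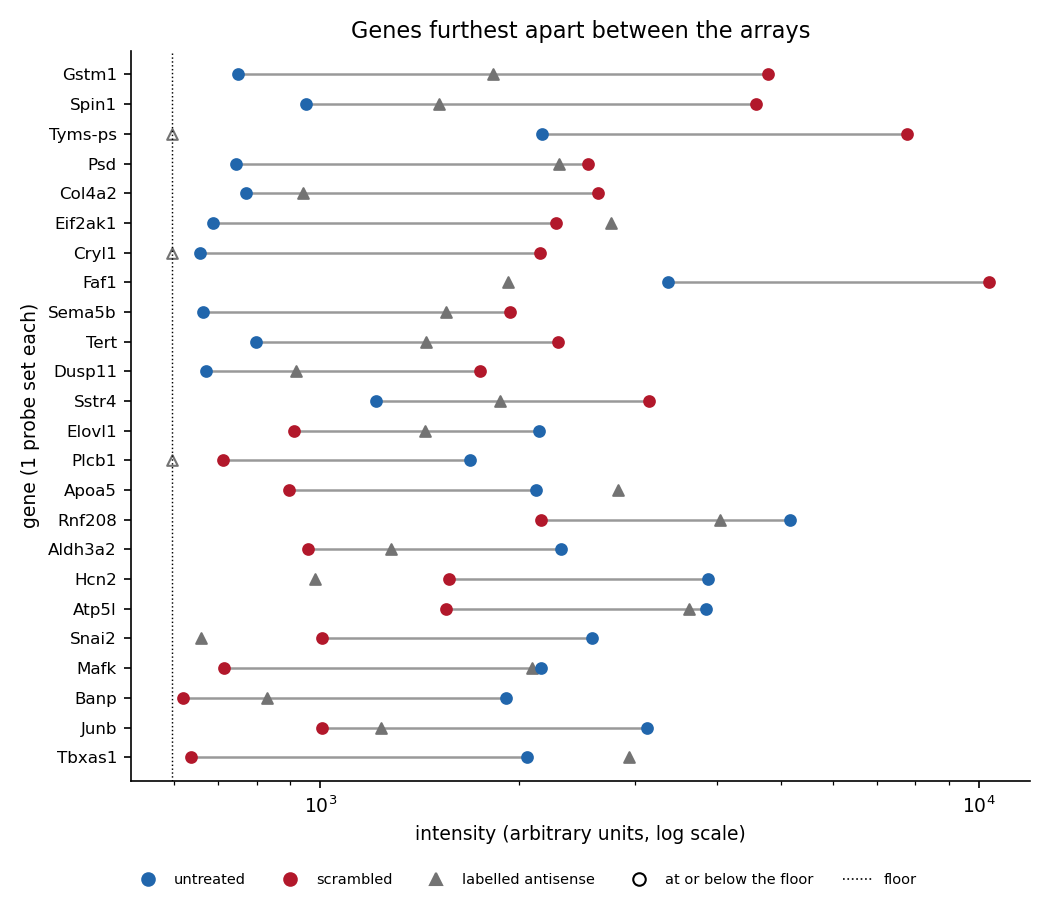
Intensity on a log axis of the 12 genes furthest above and the 12 furthest below the untreated array among genes above the floor on both arrays, with 1 point for each of the untreated, scrambled and antisense arrays. The untreated and scrambled points are 2.35 to 6.38-fold apart, most of the genes lie under 5000, and the antisense point takes no fixed side.

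The genes that sense nucleic acid and relay the signal showed no 2-fold difference. Of 18 such genes with a probe set, 11 were kept and 9 had values over the floor on both arrays, with a median difference of 0.05 over the 11. The median over the 4643 genes past the filter was 0, of which 78 (1.68%) were at least 2-fold higher and 64 (1.38%) lower. For smaller gaps the counts below use a log2 difference of 0.2, which 918 of 3720 genes above the floor on both arrays passed upward (24.7%) and 851 downward (22.9%). Of the 9 sensing genes 4 were at least 0.2 higher and 3 at least 0.2 lower.

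Myd88, the adaptor of most Toll-like receptors, read 1531 untreated, 1877 scrambled and 1246 antisense, a difference of 0.29. The kinase Irak1, next in the chain, read 2437 untreated, 1994 scrambled and 2265 antisense, a difference of -0.29, and the ubiquitin ligase Traf6 read 1177 untreated and 1217 scrambled, 0.05. Neighbours in the pathway thus lay on opposite sides and inside their bands. Tbk1, the kinase that activates Irf3, read 3354 untreated, 2575 scrambled and 3423 antisense, a difference of -0.38, and Eif2ak2, the double-stranded RNA kinase PKR, read 701 untreated and 812 scrambled, a difference of 0.21. Prkdc, the DNA-dependent protein kinase, read 752 untreated and 960.0 scrambled (0.35) and Cd14, a co-receptor of Toll-like receptors, 2061 untreated and 1563 scrambled (-0.40). Tlr7 was below the floor on both arrays, and Tlr9, Tlr3 and Zbp1 were not analysed here.

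Interferon response genes leaned upward by small amounts. Of 42 with a probe set, 25 were kept and 21 had values over the floor on both arrays. Of these 21, 17 had a higher and 4 a lower value with the scrambled oligonucleotide, 10 (47.6%) were at least 0.2 higher and 1 (4.76%) at least 0.2 lower, against 24.7% and 22.9% of all such genes. The median over the 25 was 0.14, against 0 over all genes, and none was 2-fold apart. After centring by level the median was 0.15. No replicate array bears on this shift.

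Irgm1, an interferon-induced GTPase that acts on vacuoles of intracellular pathogens, had the largest gap of the list, at 1025 untreated, 1635 scrambled and 844 antisense, a difference of 0.67. Ifi27, a mitochondrial and nuclear envelope protein, read 678 untreated, 1032 scrambled and 930.2 antisense, 0.61, and Irf7, the interferon regulatory factor downstream of Tlr7 and Tlr9, read 711 untreated, 1016 scrambled and 649 antisense, 0.51. These 3 were dim and inside their bands. Ifi30, a lysosomal thiol reductase that prepares antigens, was bright at 8852 untreated, 12724 scrambled and 9389 antisense, and its difference of 0.52 was the only one of the list above its band. Tap2, the peptide transporter, read 1952 untreated and 2686 scrambled (0.46) while its partner Tap1 read 3096 untreated and 3064 scrambled (-0.01).

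Mx2, an antiviral dynamin, read 1559.6 untreated, 2107 scrambled and 539 antisense, a difference of 0.43, and Daxx read 2875 untreated and 3697 scrambled, 0.36. Pml, the scaffold of nuclear bodies, read 6066 untreated and 7311 scrambled, 0.27. The member furthest down was Ifi35 at 836 untreated and 654 scrambled, -0.35, and Isg20, an exonuclease, was next at 7684 untreated and 6690.2 scrambled, just short of a difference of -0.2. The transcription factors Irf1 and Irf8 read 2514 untreated and 2762 scrambled (0.14) and 967 untreated and 1157 scrambled (0.26), and Irf3 read 1795 untreated and 1605 scrambled (-0.16). Isg15, Mx1 and Ifi204, which respond strongly to interferon, were below the floor on both arrays. So were Oas1g, Ifit1, Ifit2, Ifit3, Usp18, Rsad2 and Cxcl10 of the same list, so the upward lean rests on the other members. Of interferons and their receptors, 2 of the 17 genes with a probe set were above the floor on both arrays, Ifna5 (a _f set) at 966 untreated and 770.2 scrambled and Jak1 at 2520.4 untreated and 2026 scrambled, with differences of -0.33 and -0.31.

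The interferon-stimulated response element pairs GAAA blocks. A pair of GAAA blocks with any 2 bases between them, searched on both strands, occurred in 978 of 32851 RefSeq windows of the 250 bases before a gene start on GRCm38.p6 (2.98%). That share is per window, whereas a gene of the list was counted if any of its windows held a match. Of the 21 interferon response genes above the floor, 17 had an entry and 1 held a match, which was Irgm1, the member with the largest gap. Its window, chr11:48871421-48871670 on the minus strand, is printed because it holds the element, with the matched letters in capitals. The pair of matches there, at 30 to 21 and 24 to 15 bases before the start, overlap. A match of letters is a description of the window and not evidence of binding.
Irgm1: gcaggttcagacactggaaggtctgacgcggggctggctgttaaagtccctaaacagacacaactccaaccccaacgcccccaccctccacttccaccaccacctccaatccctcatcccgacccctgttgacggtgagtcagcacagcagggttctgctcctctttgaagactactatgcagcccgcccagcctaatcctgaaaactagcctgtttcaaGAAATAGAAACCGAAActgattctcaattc

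NF-kB genes lay on both sides. Of 15 subunits and inhibitors with a probe set, 11 passed the filter with a median difference of 0.09, and of the 8 above the floor on both arrays 3 were at least 0.2 higher and 3 at least 0.2 lower. Rela, the main activating subunit, read 5100.0 untreated, 7032 scrambled and 6221 antisense, a difference of 0.46 at the edge of its band, which ended at 0.48. Nfkb2, the precursor of p52, read 1889.8 untreated, 2333 scrambled and 3344 antisense, 0.30. Relb, its usual partner, read 1116 untreated and was below the floor with the scrambled oligonucleotide, at least 1.87-fold lower. The subunits thus lay on both sides.

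The inhibitor genes gave no common direction either. Nfkbia, which responds within the first hour of NF-kB activation, read 13171 untreated, 13318 scrambled and 26784 antisense, a difference of 0.02, and its second probe set gave 0.12. The antisense array stood apart from both for this gene. Nfkbie read 1026 untreated and 799 scrambled (-0.36), Bcl3, a nuclear co-activator of the family, 1748 untreated and 1002 scrambled (-0.80), and Tnip1, which dampens the pathway with Tnfaip3, 2765 untreated and 3385 scrambled (0.29). Ikbkg, the regulatory subunit of the IκB kinase, was 246 untreated, below the floor, and 1247 scrambled, at least 2.09-fold higher, the 1 call among these genes.

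Of 50 NF-kB target genes, 28 passed the filter with a median of 0.06, 0 were 2-fold apart, and of the 23 above the floor on both arrays 8 (34.8%) were at least 0.2 higher and 5 (21.7%) at least 0.2 lower. Bcl2l1, which encodes the survival factor Bcl-xL, read 1282 untreated, 1972 scrambled and 3256 antisense, 0.62. Traf2, an adaptor of TNF receptors, read 2189 untreated, 1456 scrambled and 4097 antisense, -0.59, and the mitochondrial dismutase Sod2 read 2400.4 untreated and 1634 scrambled, -0.55. The dendritic and B cell chemokine Ccl22, by far the brightest of the list, read 46651 untreated and 58039 scrambled, 0.32. Tnf read 886 untreated and 837 scrambled (-0.08) and Icam1 4450.4 untreated and 3774 scrambled (-0.24), while Tnfaip3, Il6, Ccl3 and Ccl4 were below the floor on both arrays. Il10, the target of the antisense oligonucleotide, read 5164 untreated and 5616 scrambled, a difference of 0.12, and 13946 on the array labelled antisense.

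Genes of B cell activation gave 14 of 24 genes past the filter with a median of 0.11, and of the 9 above the floor on both arrays 2 were at least 0.2 higher and 1 at least 0.2 lower. Cd83 read 4402 untreated and 5447 scrambled (0.31), and its second probe set gave -0.036. The transferrin receptor Tfrc read 8581 untreated and 9986 scrambled (0.22, a _g set), and its second, dimmer probe set gave -0.31. The co-stimulatory receptor Cd40 read 6238 untreated and 6528 scrambled (0.07). Cd80 read 1029.9 untreated and 929 scrambled (-0.15, a _s set), Cd86 was below the floor on both arrays, and Cd69 was not analysed here. Of 49 cytokine and chemokine genes, 16 passed the filter with a median of 0.00, so 33 were below the floor on the 3 arrays. Il15 read 653 untreated and 901 scrambled (0.46), lymphotoxin Lta 4992 untreated and 5796 scrambled (0.22, a _s set), Ltb 14481 untreated and 12511 scrambled (-0.21) and Tgfb1 5405 untreated and 4443 scrambled (-0.28).

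**Figure D4:**
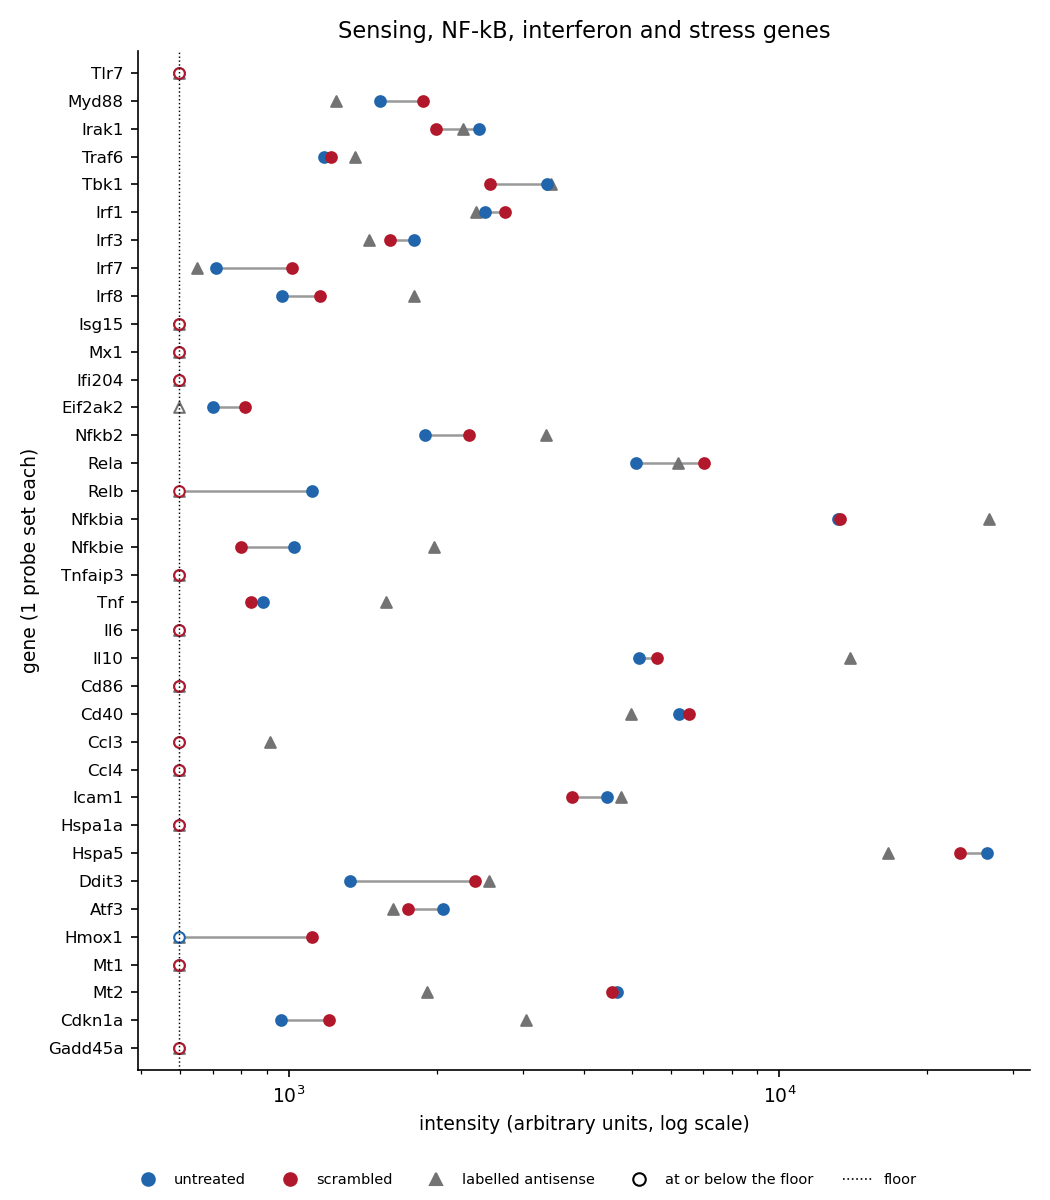
Intensity on a log axis of genes of nucleic acid sensing, interferon, NF-kB, activation and stress chosen as a panel, with 1 point for each of the untreated, scrambled and antisense arrays and a line at the floor of 595.9. The untreated and scrambled points of most genes lie close together, among them Nfkbia at 13171 and 13318, and those of Ddit3 lie apart at 1329.9 and 2399.

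Cytokine receptor and JAK-STAT genes had 22 of 35 members past the filter with a median of 0.20, and of the 16 above the floor on both arrays 8 (50.0%) were at least 0.2 higher and 4 (25.0%) at least 0.2 lower. Socs5 and Cish, which restrain cytokine receptors, read 835 untreated and 1564 scrambled (0.91) and 792 untreated and 1356 scrambled (0.78). Stat3, the main relay of IL-10 signalling, read 4188 untreated, 6153 scrambled and 4502 antisense, a difference of 0.56, and Stat5a read 2069 untreated and 2797 scrambled in an _i set, 0.44. On the other side Il4ra, a chain of the IL-4 receptor, read 1191 untreated and 678 scrambled (-0.81) and Jak3 2329 untreated and 1708 scrambled (-0.45, a _s set). Members of this list were therefore found in both directions, none of them 2-fold apart.

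Heat shock genes were near level. Of 39 with a probe set, 29 passed the filter with a median of 0.00, and of the 23 above the floor on both arrays 3 (13.0%) were at least 0.2 higher and 2 (8.70%) at least 0.2 lower, both shares below those of all genes. Several members are bright, and the spread narrows with level. Its 95th percentile was 2.02-fold at 1000 to 2000 and 1.25-fold at 16000 to 50000, and these shares were not set against genes of like level. The constitutive chaperone Hspa8 read 43111 untreated and 39422 scrambled (-0.13) and Hsp90aa1 49297 untreated and 51282 scrambled (0.06). Hspe1, the mitochondrial co-chaperonin, read 18993 untreated and 24604 scrambled (0.37) while its partner Hspd1 read 33908 untreated and 33536 scrambled (-0.02). Cct5, a subunit of the cytosolic chaperonin, read 35727 untreated and 27289.6 scrambled (-0.39). Hspe1 lay above its band and Cct5 below. The stress-inducible Hspa1a was below the floor on both arrays, and the 1 call was Hspb2, below the floor untreated and 1361 scrambled in a _g set, at least 2.28-fold higher.

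Genes of the unfolded protein and integrated stress responses were mixed. Of 31 with a probe set, 23 passed the filter with a median of -0.09, and of the 20 above the floor on both arrays 4 (20.0%) were at least 0.2 higher and 4 (20.0%) at least 0.2 lower. The genes for folding in the endoplasmic reticulum were level or lower: the chaperone Hspa5 read 26549.7 untreated and 23369.8 scrambled (-0.18), Pdia4 4438 untreated and 3855 scrambled (-0.20) and Xbp1 6316 untreated and 5943 scrambled (-0.09). P4hb, a disulfide isomerase, was an exception at 720.1 untreated, 1419.8 scrambled and 150.1 antisense, 0.98, just under the 2-fold limit and dim.

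Genes of the Atf4 branch included 3 with higher values. Ddit3, which encodes CHOP, read 1329.9 untreated, 2399 scrambled and 2559 antisense, a difference of 0.85 where the band ended at 0.97. Asns, asparagine synthetase, read 1704 untreated, 2537 scrambled and 2595 antisense, 0.57, against a limit of 0.80, and Atf4 itself read 12399.6 untreated, 15782 scrambled and 14916 antisense, 0.35. Both oligonucleotide arrays were above the untreated one in these 3 genes. Of other targets of the branch, Psat1, Mthfd2 and Atf3 did not share this. Psat1, of serine synthesis, read 1752 untreated and 1315 scrambled (-0.41) and Mthfd2, of folate metabolism, 13534 untreated and 11893 scrambled (-0.19). Atf3 read 2063 untreated and 1745 scrambled (-0.24, a _f set). The amino acid transporter Slc7a5 shared it by a small amount, at 13285 untreated, 13813 scrambled and 14975 antisense (0.06). So did Slc3a2 of the same list, at 17160 untreated, 19084 scrambled and 20463 antisense (0.15). Trib3 was below the floor untreated, 714 scrambled and 702 antisense.

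Atf4 and its partners bind composite elements of the form TGATGNAA. These letters, on both strands, were in 1134 of the 32851 windows (3.45%) and in 3 of the 17 stress genes of the list that had an entry, namely Asns, Atf3 and Herpud1. Here too the share is per window and a gene was counted if any of its windows held a match. Asns read higher, Atf3 lower and Herpud1 was nearly level at 2303 untreated and 2442 scrambled (0.08), so the members with the letters did not share a direction. The windows of Asns, chr6:7693210-7693459 on the minus strand, and Atf3, chr1:191183334-191183583 on the minus strand, both of GRCm38.p6, are printed to show the match in genes of opposite sign, in capitals. In Asns it lies 23 to 16 bases before the start, and in Atf3 it lies 110 to 103 bases before the start and is read on the opposite strand.
Asns: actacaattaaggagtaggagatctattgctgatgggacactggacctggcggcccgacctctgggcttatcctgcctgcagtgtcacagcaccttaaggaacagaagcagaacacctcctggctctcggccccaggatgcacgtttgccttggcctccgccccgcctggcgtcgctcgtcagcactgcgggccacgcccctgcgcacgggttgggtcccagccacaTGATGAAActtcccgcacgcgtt
Atf3: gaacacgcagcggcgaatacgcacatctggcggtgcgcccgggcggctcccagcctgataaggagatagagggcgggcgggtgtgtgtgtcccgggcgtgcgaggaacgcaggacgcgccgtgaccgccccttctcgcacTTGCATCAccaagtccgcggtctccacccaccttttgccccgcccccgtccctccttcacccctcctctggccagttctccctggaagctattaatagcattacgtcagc

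Metallothionein and antioxidant genes had 24 of 39 members past the filter with a median of 0.08, and of the 21 above the floor on both arrays 7 (33.3%) were at least 0.2 higher and 5 (23.8%) at least 0.2 lower. Apart from Gstm1, described above, the mitochondrial thioredoxin Txn2 read 5788 untreated and 8277 scrambled (0.52), the transferase Gstt1 11245 untreated and 15592 scrambled (0.47) and glutathione synthetase Gss 1130.1 untreated and 675 scrambled (-0.74). Mt2, a metal-responsive metallothionein, read 4661 untreated and 4552 scrambled (-0.03), and Mt1 was below the floor on both arrays. Hmox1, haem oxygenase, was below 0 untreated and 1115 scrambled, at least 1.87-fold higher.

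Of 21 p53 target and DNA damage genes, 15 passed the filter, all with values over the floor on both arrays. Their median was 0.20, with 8 (53.3%) at least 0.2 higher, 3 (20.0%) at least 0.2 lower and 0 at 2-fold. Besides Ddit3, which this list shares, Ccng1, a cyclin induced by p53, read 754 untreated, 1113 scrambled and 2234 antisense, 0.56, and Phlda3, an Akt inhibitor, 944 untreated and 1336 scrambled, 0.50. The cell cycle inhibitor Cdkn1a read 961 untreated, 1205 scrambled and 3050.1 antisense, 0.33, while Mdm2 read 3067 untreated and 3204 scrambled (0.06) and Sesn1 1795 untreated and 1457 scrambled (-0.30). Gadd45a was below the floor on both arrays. Genes that restrain apoptosis had a median of 0.08 over 12 and those that promote it -0.03 over 16. Of the 12 of the latter above the floor on both arrays, 1 was at least 0.2 higher and 4 at least 0.2 lower. The one higher was Bak1, which permeabilizes the mitochondrial outer membrane, at 8706 untreated and 10307 scrambled (0.24). Fadd, a death receptor adaptor, was below the floor untreated and 1065 scrambled, at least 1.79-fold higher. The caspases Casp8, Casp4 and Casp9 read 1519.8 untreated and 1056 scrambled (-0.53), 8219 untreated and 6253 scrambled (-0.39) and 823 untreated and 628 scrambled (-0.39, a _g set), and Bcl2l11, which encodes Bim, 1721 untreated and 1303 scrambled (-0.40). The other probe sets of Bcl2l11 went the opposite way. One of like level read 1774 untreated and 1962 scrambled (0.15), and a _g set was below the floor untreated and 739 scrambled.

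Immediate-early genes, which turn on within minutes of a stimulus and are sampled here at 24 h, had 19 of 31 members past the filter with a median of -0.03. Of the 15 above the floor on both arrays 3 (20.0%) were at least 0.2 higher and 6 at least 0.2 lower, where 24.7% and 22.9% of all such genes were. Zfp36, not among the 15, read 1190 untreated and was below the floor at 198 scrambled (a _s set), at least 1.997-fold lower. It read 213 antisense. Dusp2, a phosphatase of MAP kinases, read 2981 untreated and 4573 scrambled (0.62) and the zinc finger factor Egr1 1396 untreated, 2087 scrambled and 4036 antisense (0.58). Dusp1, of the same phosphatase family as Dusp2, read 1025 untreated and 664 scrambled (-0.63), and the antiproliferative Btg1 1625 untreated and 996 scrambled (-0.71). Myc was nearly level at 4457 untreated and 4944 scrambled (0.15).

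Genes of endocytosis and the lysosome, the route by which free oligonucleotide enters cells, had 47 of 63 members past the filter with a median of 0.05 and 0 at 2-fold. Of the 45 above the floor on both arrays 15 (33.3%) were at least 0.2 higher and 3 (6.67%) at least 0.2 lower. Lrp1, an endocytic receptor of many ligands, read 1618 untreated, 2837 scrambled and 1189 antisense, 0.81 and above its band. Atp6v0a1, of the pump that acidifies endosomes, read 908 untreated and 1481 scrambled, 0.71, and the clathrin adaptor subunit Ap1b1 read 2744 untreated and 3904 scrambled, 0.51. The late endosome GTPase Rab7 read 3733 untreated and 4893 scrambled (0.39).

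Some other members of these organelles were nearly level or lower. The pump subunits Atp6v1a and Atp6v1e1 read 5761 untreated and 5479 scrambled (-0.07) and 6408 untreated and 6093 scrambled (-0.07), the scavenger receptor Scarb1 2889 untreated and 2707 scrambled (-0.09) and cathepsin S, Ctss, 14246 untreated and 12034 scrambled (-0.24). Scarb2 read 2041 untreated and 1734 scrambled (-0.24) and Gusb 2726 untreated and 2285 scrambled (-0.25). With Ctss these were the members above the floor on both arrays that were at least 0.2 lower. Genes of nucleotide synthesis and salvage had 27 of 35 members past the filter, a median of 0.03, and 4 at least 0.2 higher against 1 at least 0.2 lower among 25. That 1 was thymidine kinase Tk1, at 6849 untreated, 4635 scrambled and 5269 antisense, a difference of -0.56 and below its band, while the kinase Dck, which takes deoxycytidine, read 3581 untreated and 3161 scrambled (-0.18, a _f set).

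Ribosomal protein genes read higher on the scrambled array almost without exception, and so did most bright probe sets. Of 35 such genes 25 passed the filter with a median of 0.22, and of the 23 above the floor on both arrays 22 had a higher value, 16 (69.6%) by at least 0.2 and 0 lower by as much. Rpl41, which encodes the shortest protein of the large subunit, was furthest at 99639.9 untreated, 159968 scrambled and 106078 antisense in a _f set, 0.68 and above its band. Rps18 read 161685 untreated and 200380.0 scrambled (0.31), Rplp0, of the ribosomal stalk, 140746 untreated and 172709 scrambled (0.30), and Rpl7, the exception, 104969 untreated and 99291 scrambled (-0.08, a _s set).

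These genes are among the brightest on the array, and brightness moved with the difference. Of the 128 probe sets with a mean level above 50000, 114 (89.1%) read higher on the scrambled array with a median of 0.18, against a median of at most 0.02 in each class of level below 16000. At 100000 and above, 14 ribosomal protein genes had a median of 0.25, 14 other probe sets with 1 symbol had 0.21, and 41 probe sets without a single symbol had 0.22. The actin, Gapdh, bacterial and MURINE_B2 control probe sets above 50000 did the same, with 9 of 10 higher and a mean of 0.27. After centring by level the median of the ribosomal protein list was 0.05, and with quantile normalization it was 0.027. The bacterial controls not above 50000 were lower in 6 of 6, from -0.19 to -0.02.

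Other genes of protein synthesis and breakdown had medians near 0. Translation factors had a median of 0.06 over 32 genes, ribosome biogenesis genes -0.02 over 27 and proteasome genes 0.00 over 37, and none of the 3 lists held a gene 2-fold apart. The proteasome subunits Psmb6 and Psmc6 were below their bands, at 11595 untreated and 8958 scrambled (-0.37) and 12993 untreated and 10175 scrambled (-0.35). Glycolysis and hypoxia genes had a median of 0.08 over 24, with 8 of 20 at least 0.2 higher and 2 at least 0.2 lower. Hexokinase Hk2 read 1782 untreated and 2444 scrambled (0.46) and the phosphofructokinase Pfkm 1875 untreated and 2556 scrambled (0.45), while the hypoxia factor Hif1a read 3511 untreated and 3204 scrambled (-0.13, a _f set). Mxi1, a Myc antagonist, was 1914 untreated and below the floor scrambled, at least 3.21-fold lower, and it was below the floor on the antisense array too.

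Respiratory chain and ATP synthase genes had a median of -0.04 over 51, with 4 (8.16%) of 49 at least 0.2 higher and 8 (16.3%) at least 0.2 lower. The 1 call was Atp5pb, subunit b of ATP synthase, at 4352 untreated, 1852 scrambled and 3572 antisense, a difference of -1.23. Other ATP synthase subunits were closer: Atp5a1 read 35244 untreated and 36781 scrambled (0.06), Atp5o 20742 untreated and 20714 scrambled, and Atp5j 17069.8 untreated and 13544 scrambled (-0.33). Cholesterol synthesis genes had a median of 0.03 over 15 and included farnesyl diphosphate synthase Fdps at 21339.6 untreated and 25649 scrambled (0.27) and squalene synthase Fdft1 at 2575 untreated and 1728 scrambled (-0.58).

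Genes of DNA replication had the most 2-fold calls among the lists, each of them lower in the 1 probe set taken per gene. Of 46 with a probe set, 39 passed the filter with a median of 0.00, and 3 were at least 2-fold lower and 0 higher. The shares over the 4643 genes past the filter were 1.38% lower and 1.68% higher. Of the 36 above the floor on both arrays 10 (27.8%) were at least 0.2 lower and 4 (11.1%) at least 0.2 higher, against 22.9% and 24.7% of all such genes. Pola2, a subunit of the primase complex, read 2483 untreated, 1154 scrambled and 1156 antisense, -1.11. Pole2, of polymerase epsilon, read 1269 untreated and 630.0 scrambled, -1.01, close to the floor, and the other was Cdc45. Pola2 and Pole2 were low on both oligonucleotide arrays. The dimmer probe sets of the clamp loader gene Rfc5 were called higher (1.36 and 1.02), while its brightest read lower, as given above.

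Brighter genes of the same list lay in both directions. Rpa1, the large subunit of the single-strand binding protein, read 9939 untreated, 6167 scrambled and 7122 antisense, -0.69 and below its band, and Mcm10 read 2982 untreated and 2052 scrambled (-0.54). Pold2, of polymerase delta, read 9784 untreated, 14379 scrambled and 12185 antisense in a _r set, 0.56 and above its band, and cyclin Ccne1 2754 untreated and 4393 scrambled (0.67). The helicase subunits Mcm3, Mcm4, Mcm5 and Mcm7 differed by 0.01 to 0.11, with Mcm5 at 46247 untreated and 49891 scrambled. Genes of G2 and mitosis had a median of -0.06 over 38, with 10 (27.8%) of 36 at least 0.2 lower, 4 (11.1%) at least 0.2 higher and 0 at 2-fold. G1 cyclins, kinases and inhibitors had a median of -0.06 over 15.

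B cell identity genes had a median of 0.05 over 34, with 6 (20.0%) of 30 at least 0.2 higher and 9 (30.0%) at least 0.2 lower. Fcgr2b, the inhibitory Fc receptor of B cells, read 2298 untreated, 1049.6 scrambled and 1172 antisense in a _s set, -1.13, and was low on both oligonucleotide arrays. The chemokine receptor Cxcr5, which guides B cells to follicles, read 1214 untreated and 704 scrambled (-0.79), and Ptprc, which encodes CD45, 1756 untreated and 1169 scrambled (-0.59). Vpreb3 read 2344 untreated and 3384 scrambled (0.53), the octamer factor Pou2f2 4627 untreated and 6302 scrambled (0.45, a _s set) and the kinase Btk 3836 untreated and 4624 scrambled (0.27). The delta heavy chain gene Ighd was below the floor untreated and 1333 scrambled, at least 2.24-fold higher. Jchain, a plasma cell gene, read 1784 untreated and 1691 scrambled (-0.08), Irf4 15737 untreated and 16268 scrambled (0.05), and Sdc1 and Prdm1 were below the floor on both arrays.

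Antigen presentation genes had a median of -0.01 over 23, with 6 (27.3%) of 22 at least 0.2 higher and 6 at least 0.2 lower. H2-M3, which presents formylated peptides, read 1297 untreated and 2268 scrambled (0.81, a _g set), and the class I heavy chains H2-K1 and H2-D1 read 43834 untreated and 54446 scrambled (0.31) and 43541 untreated and 53716 scrambled (0.30), both in _f sets that may take up other class I genes. Their light chain B2m went the other way at 24631 untreated and 19829.7 scrambled (-0.31), as did the class II chain H2-Eb1 at 7831 untreated and 6274 scrambled (-0.32) and H2-Q5 at 3410.1 untreated and 2047 scrambled (-0.74, a _f set). The invariant chain Cd74 read 81644 untreated and 92660.4 scrambled (0.18).

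Markers of other cell types were mostly below the floor. Of 11 T cell markers 2 passed the filter, Cd4 at 1349 untreated and 2339 scrambled and Lat at 3188 untreated and 2261 scrambled, and Cd3e, Cd3d and Cd3g were below the floor on the 3 arrays. Sums of intensity here run over every marker of a list on the array, those below the floor included, with values below 0 taken as 0. Of 17 macrophage markers 7 passed, and the whole list summed to 28288 untreated and 29451 scrambled. Most of that sum was Mpeg1, at 18875 untreated and 20152 scrambled. Fcgr1 read 2851 untreated and 3236 scrambled (a _s set) and Cd14 2061 untreated and 1563 scrambled, while Lyz2 and Adgre1 were below the floor. Of 18 granulocyte and mast cell markers 6 passed, and the whole list summed to 7438 and 9271. Csf3r read 1843 untreated and 2966 scrambled, Prg2 1379 untreated and 1696 scrambled, and Camp 1052 untreated and 1545 scrambled. S100a8, S100a9 and Mpo were below the floor on both arrays. Of 20 stromal and endothelial markers 6 passed, and the whole list summed to 6636 and 8878. Those past the filter included Timp1, an inhibitor of matrix proteases, at 1826 untreated, 3001 scrambled and 700.0 antisense, and Kdr, a receptor of endothelial growth factor, at 912 untreated and 1536 scrambled, while Col1a2, Pecam1 and Cdh5 were below the floor. Of 10 NK markers 1 passed and of 7 erythroid and platelet markers 3, with haemoglobin Hba-a1 at 1628 untreated and below the floor scrambled. Klf1, an erythroid transcription factor, read 2626 untreated and 3985 scrambled (0.60) and was above its band. The part of these markers in the results was not tested.

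**Figure D5:**
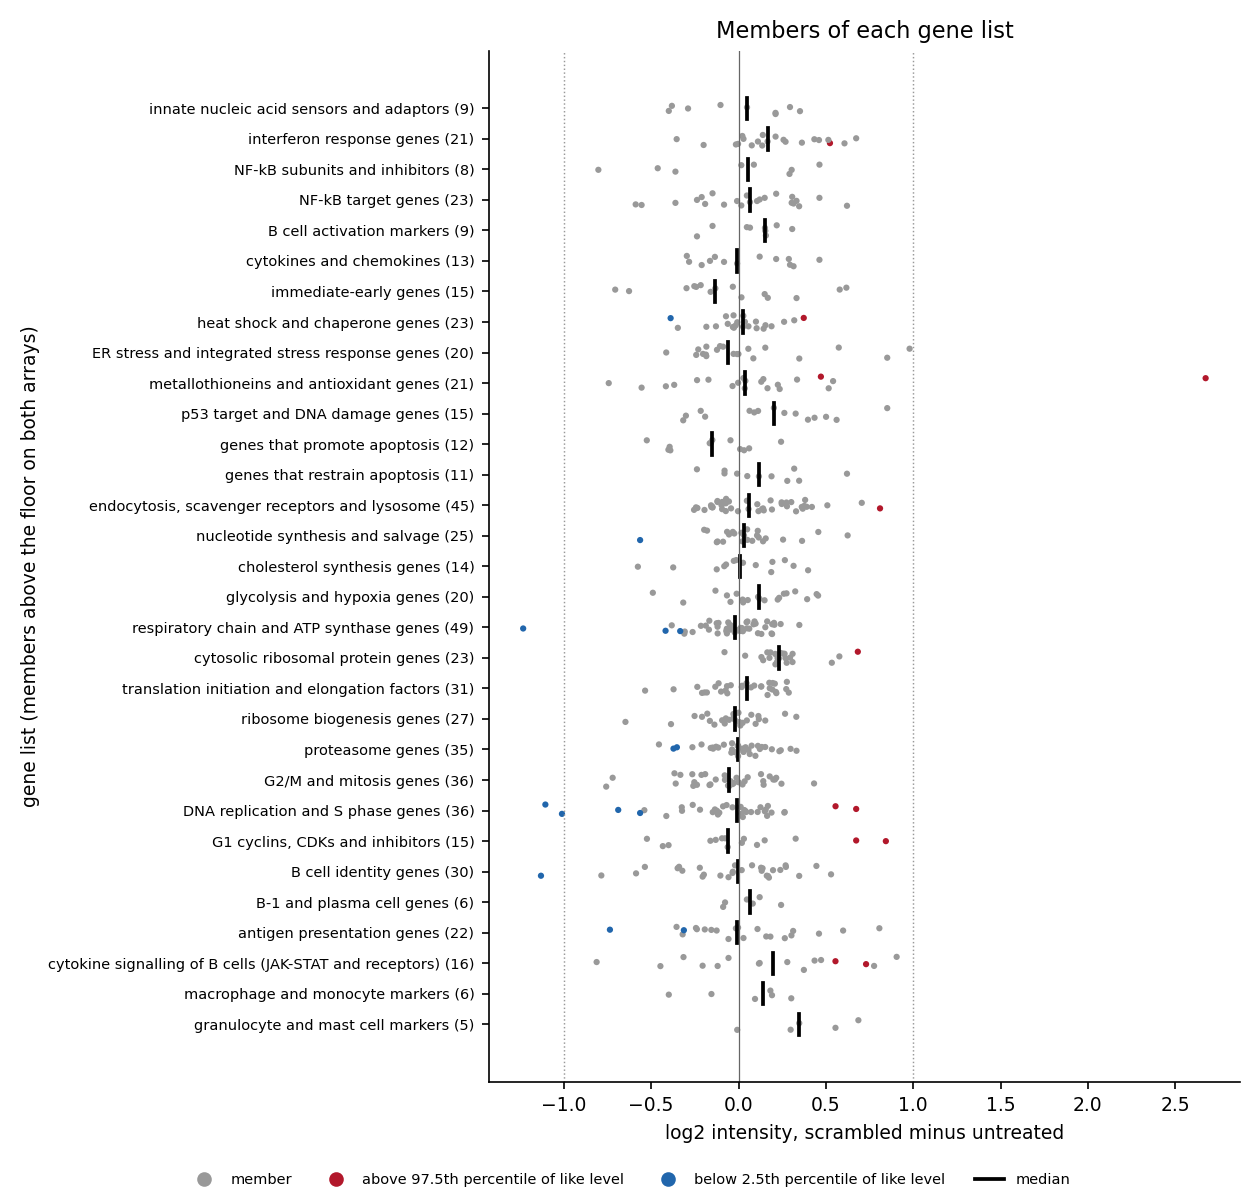
Log2 differences, scrambled minus untreated, of the members above the floor on both arrays for each list with at least 5 such members: 1 point per gene, a black line at their median, red or blue points above or below the band of like level, and dotted lines at 2-fold. Over these members the medians of ribosomal protein genes (0.23), p53 targets (0.20), JAK-STAT and receptor genes (0.20) and interferon response genes (0.17) lie to the higher side and that of pro-apoptotic genes (-0.15) to the lower side, and few points are 2-fold apart.

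RNA quality controls differed between the arrays. The ratio of the 3′ to the 5′ probe set of 18S ribosomal RNA was 1.72 untreated, 4.48 scrambled and 8.13 antisense. The ratios of actin were 0.920 untreated and 0.992 scrambled, and those of Gapdh 1.01 and 0.997. The 18S ratio thus differed between the 3 arrays while those of actin and Gapdh stayed near 1, and its part in the differences above was not tested. Of the suffixed probe sets past the filter 55 of 1181 (4.66%) were at least 2-fold apart, against 135 of 4946 (2.73%) of those without a suffix, and the share in _r sets was 18 of 180 (10.0%).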

How the data were processed

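Total RNA of 3 groups of LNC cells was measured, 1 array a group. The authors deposited linear intensity values per probe set, scaled to a trimmed mean of 1500 on each array. No source used here names the array software. For the comparison, arrays were scaled to a common trimmed mean (2% off each end, controls left out). Values below the floor of 595.9 were raised to it, and probe sets above it on any of the 3 arrays were kept. Differences are log2 scrambled minus log2 untreated intensities. Of the 12588 probe sets 10276 had 1 gene symbol in the platform annotation, 363 had several and 1949 were not listed there and stayed unnamed, and 10257 of those with 1 symbol matched the RefSeq gene table. For each gene in a list, the brightest probe set with 1 symbol over the 3 arrays was taken. Named genes are the 12 furthest on each side above the floor on both arrays, the 5 furthest bounds on each side, up to 3 per list, and a panel of sensing, NF-kB and stress genes. Further list members were named after their values were seen. The comparison, the 36 gene lists and the rules were chosen with earlier results of these data known. Alternatives covered floor, scaling, filter, fold limit and probe set choice, with level-dependent centring by lowess over a fraction of 0.3. Python 3.11.15, numpy 2.4.6, pandas 2.3.3 and statsmodels 0.14.6 were used. Counting was tested on simulated data. Precision is limited by the number of arrays. Motifs were searched in RefSeq windows of 250 bases before a gene start (GRCm38.p6), with chromosome 18 left out.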

Additional observations from a re-analysis of the deposited data

Results flagged for a closer look

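The probe set for the middle of 18S ribosomal RNA, an Affymetrix control outside the comparison of transcripts, read 1009 untreated and 2070 scrambled, 2.05-fold apart. Its 3′ neighbour read 7690 and 10915 and its 5′ neighbour 4463 and 2434, so the 5′ end went the opposite way. The item stood out because its signal on the scrambled array was above that of the untreated control array. Its cause was not tested.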

How the results depend on the processing

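The counts of probe sets at least 2-fold apart, 104 higher and 86 lower, depended most on the floor and the fold limit. A floor at the 40th percentile made them 632 and 519, one at 1 robust standard deviation 334 and 281, and at 4 robust standard deviations 28 and 21. With a limit of 1.5-fold they were 414 and 374, and at 3-fold 16 and 17. With both arrays above the floor they were 63 and 43. Without suffixed probe sets 68 were higher and 60 lower. Scaling to the bacterial spike-in controls gave 119 higher and 50 lower and raised the median difference above the floor to 0.13. Quantile normalization gave 103 and 92 and level-dependent centring 103 and 90, and the values as deposited, no filter and leaving out probe sets above 50000 left both counts within 1.5 times. No named gene at least 2-fold apart changed sign under an alternative that gave it a value. The list medians that moved by more than 0.29 belonged to lists with few members. That of interferons and their receptors was -0.32 with both arrays above the floor. That of erythroid and platelet markers, -0.42, changed sign under some settings: it was -0.11 with the floor at the 40th percentile, 0.57 at 4 robust standard deviations, 0.088 with both arrays above the floor, 0 without a filter and 0.27 as the mean over probe sets. Those of granulocyte and stromal markers were 0 without a filter. The cause of these shifts was not tested beyond the change in members counted. No paired analysis was possible because each group has 1 array. Low signal limits the comparison, since most probe sets lay below the floor and most large differences were dim.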
